A study of Homo sapiens with 12 samples.

Results

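Nonmuscle myosin II is the motor that pulls actin filaments together, and its heavy and light chain genes were followed in A549/DDP cells with and without NRF2 knockdown and gambogenic acid. The 8 genes MYH9, MYH10, MYH14, MYH15, MYL6, MYL9, MYL12A and MYL12B were taken by symbol from tables of 61510 genes, and 7 of them passed the low-count filter that left 15653 genes. The set was put together with values of these same libraries in view: MYH14 was chosen by its large differences between the lines and with GNA, and the steep fall of MYH15 was also known. Both are therefore described with no test, while the 5 other measured genes carry the tests of a fit across all genes.

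A549/DDP cells descend from A549, an established line from a human lung adenocarcinoma, and resist cisplatin (DDP), which was in the growth medium of all groups at 1 µg/ml. One of the lines compared had a hairpin against NRF2 (shNRF2), the antioxidant transcription factor encoded by NFE2L2, and the other a control hairpin (shNC). Each line received gambogenic acid at 4 µM (GNA, from the resin gamboge) or DMSO for 24 h. The 4 groups were shNRF2 GNA, shNRF2 DMSO, shNC GNA and shNC DMSO, with 3 bulk RNA-seq libraries of total RNA in each. Nothing in the labels tells separate cultures from repeat libraries, or a clone from a pool of cells. The p-values therefore measure library spread, which may be technical, and an effect of the hairpin cannot be told apart from other differences between the lines.

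A myosin II molecule is a dimer of heavy chains, which hold the motor head and the coiled-coil tail, each carrying an essential and a regulatory light chain. Phosphorylation of the regulatory light chain by MYLK and other kinases switches the motor on and lets molecules assemble into filaments, and a myosin phosphatase switches it off. In epithelial cells such as those of the lung, these filaments drive adhesion, migration, junction tension and the closing of the cleavage furrow at cell division.

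MYH9, MYH10 and MYH14 encode the nonmuscle heavy chains IIA, IIB and IIC, and MYH15 encodes a divergent, slow-type sarcomeric heavy chain. MYL6 encodes the essential light chain, and MYL9, MYL12A and MYL12B encode regulatory light chains. On GRCh38 in GENCODE 29 the heavy chain genes lie at chr22:36281277-36388067 (MYH9, minus strand), chr17:8474205-8630761 (MYH10, minus), chr19:50188186-50310544 (MYH14, plus) and chr3:108380369-108529322 (MYH15, minus). The light chain genes lie on the plus strand at chr12:56158161-56163496 (MYL6), chr20:36541484-36551447 (MYL9), chr18:3247481-3256236 (MYL12A) and chr18:3261479-3278431 (MYL12B). MYL12A and MYL12B are neighbours.

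The regulatory light chain genes are close copies, which bears on how reads can be assigned to them. The last 150 coding bases of each, stop codon included, are shown from GENCODE 29 transcripts 5′ to 3′, with capitals where a base differs from MYL12A, and in the MYL12A line where it differs from MYL12B.
MYL12A: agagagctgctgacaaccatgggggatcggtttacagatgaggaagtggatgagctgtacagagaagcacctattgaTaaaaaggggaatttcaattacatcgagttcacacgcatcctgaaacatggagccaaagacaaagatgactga
MYL12B: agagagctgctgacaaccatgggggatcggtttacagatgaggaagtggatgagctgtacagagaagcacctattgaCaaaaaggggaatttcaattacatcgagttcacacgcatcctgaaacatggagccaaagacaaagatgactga
MYL9: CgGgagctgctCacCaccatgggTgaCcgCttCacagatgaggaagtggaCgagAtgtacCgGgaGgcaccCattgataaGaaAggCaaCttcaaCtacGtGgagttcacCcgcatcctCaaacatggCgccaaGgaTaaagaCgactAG
In this stretch MYL12B differed from MYL12A at 1 base and MYL9 at 29. Over the aligned coding sequence MYL12A and MYL12B were identical at 95.7% of 516 bases, against 79.6% of 519 for MYL9 and MYL12A. Among the heavy chains the coding identity was 73.6% for MYH9 and MYH10, 71.7% for MYH9 and MYH14, and 56.5% for MYH9 and MYH15. Of all 50-base windows of the MYL12A transcript 8.94% were also in MYL12B, and no 100-base window was.

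Promoters were searched because NRF2 binds the antioxidant response element and the heat shock gene HSPA1A rose with GNA in both lines (log2 5.28 in shNRF2 and 2.17 in shNC). RefSeq promoter windows on GRCh38.p14, from 250 bases before to 50 after a start, were held for 7 of the 8 genes, with several starts for MYL12A and MYL12B. Shown are the window of MYH14, the gene with the widest changes, and the 1 window of the set with a match.
MYH14, chr19:50203372-50203671, plus strand: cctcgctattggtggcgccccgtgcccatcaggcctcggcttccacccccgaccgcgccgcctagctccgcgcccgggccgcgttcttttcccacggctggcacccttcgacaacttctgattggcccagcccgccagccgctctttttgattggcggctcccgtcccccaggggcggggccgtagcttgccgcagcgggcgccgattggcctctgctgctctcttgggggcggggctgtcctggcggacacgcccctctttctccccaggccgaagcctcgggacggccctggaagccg
MYL12A, chr18:3247551-3247850, plus strand: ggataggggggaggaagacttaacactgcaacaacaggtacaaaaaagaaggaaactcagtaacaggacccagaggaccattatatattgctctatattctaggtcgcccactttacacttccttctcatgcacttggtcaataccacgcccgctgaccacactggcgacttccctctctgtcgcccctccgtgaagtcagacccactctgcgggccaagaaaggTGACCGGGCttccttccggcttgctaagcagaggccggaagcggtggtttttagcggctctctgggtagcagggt
The capitals mark the antioxidant response element core, TGACNNNGC on either strand, which began 25 bases before that MYL12A start and stood in 13.3% of all 35116 promoter windows. The MYH14 window held none of the motifs searched. It lies inside the GENCODE 29 gene, which begins at chr19:50188186, so the start further upstream was not searched. The MYH15 window and all windows of MYL12B likewise lie inside their GENCODE 29 genes. The paired heat shock unit GAANNTTC, in 6.77% of all windows, and the CArG box bound by SRF, in 1.29%, were in no window of the 7 genes. A match is a description of letters and not a measured site, and none of these windows tells whether a factor was bound.

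Library totals were 12848607 to 17192671 counts. NFE2L2 was lower in each shNRF2 library (43.6 to 47.5 CPM with GNA, 47.9 to 53.3 CPM with DMSO) than in any shNC library (83.0 to 90.2 CPM with GNA, 74.4 to 81.6 CPM with DMSO), where CPM is the count scaled by the TMM-adjusted library total. Of 6 epithelial markers 5 passed the filter, and their summed level was 9462 to 10030 CPM in the GNA libraries, against 15291 to 16549 CPM in the DMSO libraries. That sum is almost all KRT8 and KRT18, both lower on average with GNA, and by calls the list was mixed: the GNA calls were 1 up and 2 down for shNRF2, and 2 up and 2 down for shNC. Only 2 of 8 alveolar type 2 markers passed, with sums of 17.1 to 37.1 CPM. Endothelial and leukocyte markers summed to at most 1.43 CPM in any library, smooth muscle markers to 56.3 to 73.5 CPM and fibroblast markers to 7.28 to 9.96 CPM. The smooth muscle sum is nearly all SMTN (group means of 46.5 to 56.8 CPM) and ACTA2 (12.0 to 14.8 CPM). Of 13 skeletal and cardiac muscle markers 1 passed, ACTC1 and MYOD1 were at 0, and the sum was 43.9 to 63.4 CPM. That sum is nearly all TNNT1 (group means of 46.7 to 58.4 CPM). Within its group, library shNC DMSO 1 was the odd one (chi-square per degree of freedom 7.58 and 5.96, against 3.59 between those), and results that change without it are given both ways.

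MYH14, the heavy chain of myosin IIC found mostly in epithelial cells, had the widest range of the set. It had 40.8, 45.3 and 38.8 CPM in the shNRF2 GNA libraries and 4.69, 2.37 and 3.14 CPM in the shNRF2 DMSO libraries. In the shNC line it had 50.7, 56.5 and 56.3 CPM with GNA and 21.7, 21.2 and 22.0 CPM with DMSO. No group overlapped another: shNC GNA was highest, then shNRF2 GNA, then shNC DMSO, and shNRF2 DMSO was lowest by a wide margin, with 31 to 73 counts a library. The means were 41.6 ± 3.31 CPM in shNRF2 GNA, 3.40 ± 1.18 CPM in shNRF2 DMSO, 54.5 ± 3.27 CPM in shNC GNA and 21.6 ± 0.414 CPM in shNC DMSO (SD, n = 3 each).

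The fitted log2 fold change of MYH14 between GNA and DMSO was 3.58 in shNRF2 and 1.34 in shNC, a difference of responses of 2.25. Between the lines it was -0.39 with GNA, against -2.64 with DMSO, so the gap between the lines was small in GNA-treated cells and large in DMSO-treated cells. Ranked by log2 fold change among 15653 genes, MYH14 was 15th from the top for GNA in shNRF2, 234th for GNA in shNC and 39th from the bottom for shNRF2 against shNC in DMSO. These values chose the gene and are given as a description. On the log2(FPKM + 1) scale the change with GNA in shNRF2 was 1.96, because a pseudocount of 1 is large beside an FPKM of 0.323 in shNRF2 DMSO. Its tested neighbours on chromosome 19 had other values: for GNA in shNRF2, NR1H2 had a log2 fold change of 0.34, ZNF473 0.54, VRK3 -0.05 and POLD1 -0.82.

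MYH15, the divergent sarcomeric heavy chain, was lowest with GNA and knockdown together. It had 11.5, 9.75 and 11.3 CPM in the shNRF2 GNA libraries and 31.8, 27.9 and 30.2 CPM in the shNRF2 DMSO libraries. In the shNC line it had 19.001, 20.5 and 20.4 CPM with GNA and 56.0, 48.1 and 48.6 CPM with DMSO. All 4 groups were apart, and shNC DMSO was highest. The log2 fold changes with GNA were -1.47 in shNRF2 and -1.35 in shNC, and those of shNRF2 against shNC were -0.89 with GNA and -0.76 with DMSO. The difference of the GNA responses was -0.12. MYH15 was 64th from the bottom of 15653 genes for GNA in shNC, and this too is a description of a gene chosen with its fall known.

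In the RefSeq table MYH15 reaches 1209 bases into CIP2A, an inhibitor of the phosphatase PP2A, whereas in GENCODE 29 they lie 20547 bases apart. CIP2A had 62.7 CPM in shNRF2 GNA, 142 CPM in shNRF2 DMSO, 68.6 CPM in shNC GNA and 117 CPM in shNC DMSO. It was thus lower with GNA in both lines, as MYH15 was, but with DMSO it was higher in shNRF2 than in shNC (log2 0.28 ± 0.057 SE, edgeR adjusted p = 0.000391), where MYH15 was lower. The part of CIP2A reads in the MYH15 counts was not tested.

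**Figure D1:**
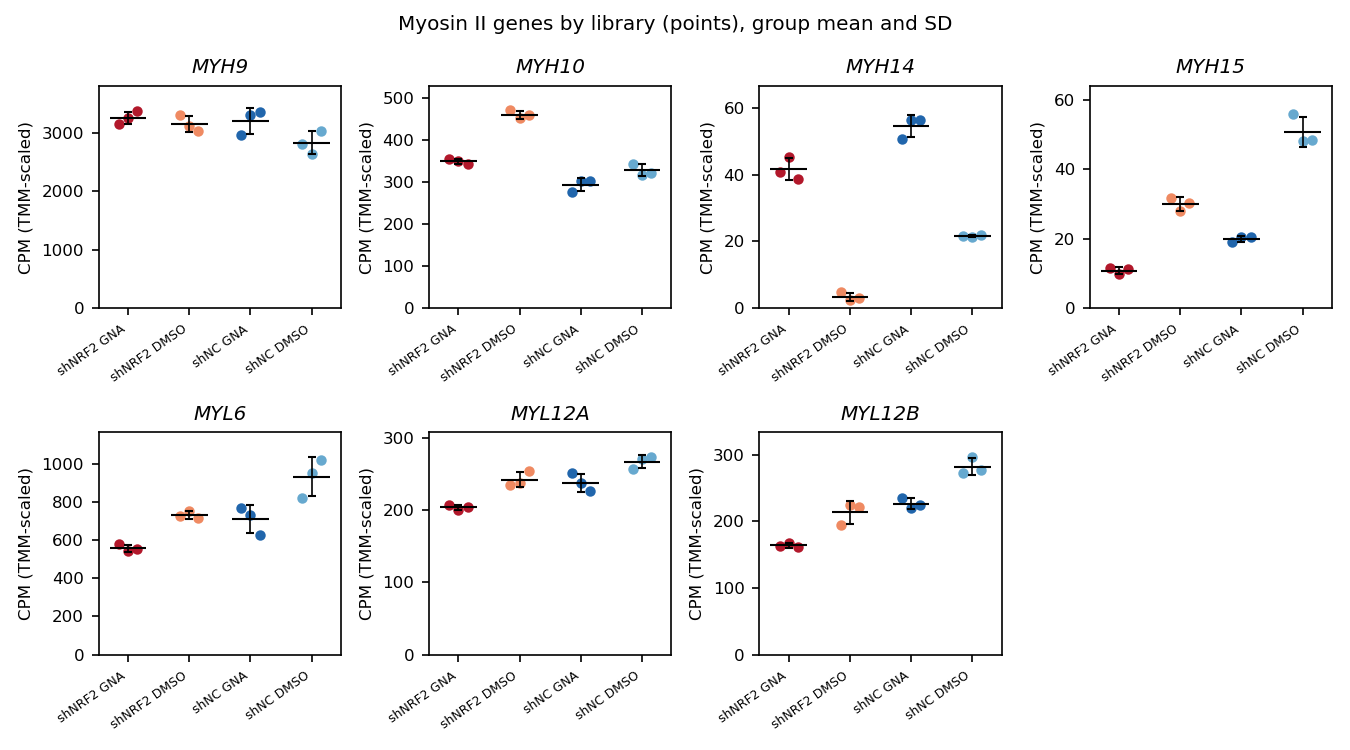
Level of 7 myosin II genes in CPM (y axis, from 0, own scale per gene) in each library (points) of the shNRF2 GNA, shNRF2 DMSO, shNC GNA and shNC DMSO groups (x axis), with group mean (line) and SD (bar, n = 3). MYH14 is near 0 in shNRF2 DMSO alone (2.37 to 4.69 CPM), MYH15 and the 3 light chains are highest in shNC DMSO, and MYH10 is highest in shNRF2 DMSO.

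The genes whose pattern over the 4 groups was most like that of MYH14 were found by the root mean square difference of centred log2 group means among 9161 candidates. These were tested genes with at least 5 CPM in the highest group. Names of clones, long noncoding, antisense and small RNAs were left out, as was any symbol ending in P and a number. The last rule also drops some protein-coding genes, so a nearer gene may have been missed. The nearest was HMOX1, heme oxygenase 1, at 0.45 log2 units, with 121 CPM in shNRF2 GNA, 15.1 CPM in shNRF2 DMSO, 142 CPM in shNC GNA and 40.6 CPM in shNC DMSO. After it came IGFN1 at 0.53, HDAC9 at 0.57, PCDH1 at 0.62 and HSPB8 at 0.63. HDAC9 is a class II histone deacetylase, PCDH1 a protocadherin of airway epithelium and HSPB8 a small heat shock protein. They were picked for this likeness and were not alike throughout. PCDH1 had 5.10 CPM in shNRF2 GNA, against 3.79 CPM in shNC GNA, and HSPB8 had 11.9 CPM in shNRF2 GNA, against 9.14 CPM in shNC GNA, the reverse of MYH14.

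Among candidates taken by the same rules, nearest to MYH15 was CXCL10, an interferon-induced chemokine, at 0.14 log2 units, with 5.04 CPM in shNRF2 GNA, 14.0 CPM in shNRF2 DMSO, 11.4 CPM in shNC GNA and 23.2 CPM in shNC DMSO. Next were OLR1, a receptor for oxidised LDL, at 0.22, and CXCL11, a further chemokine, the DNA glycosylase NEIL3 and the aldose reductase AKR1B1, each at 0.27. Likeness is over 4 group means only and the 12 libraries are shared by all genes.

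**Figure D2:**
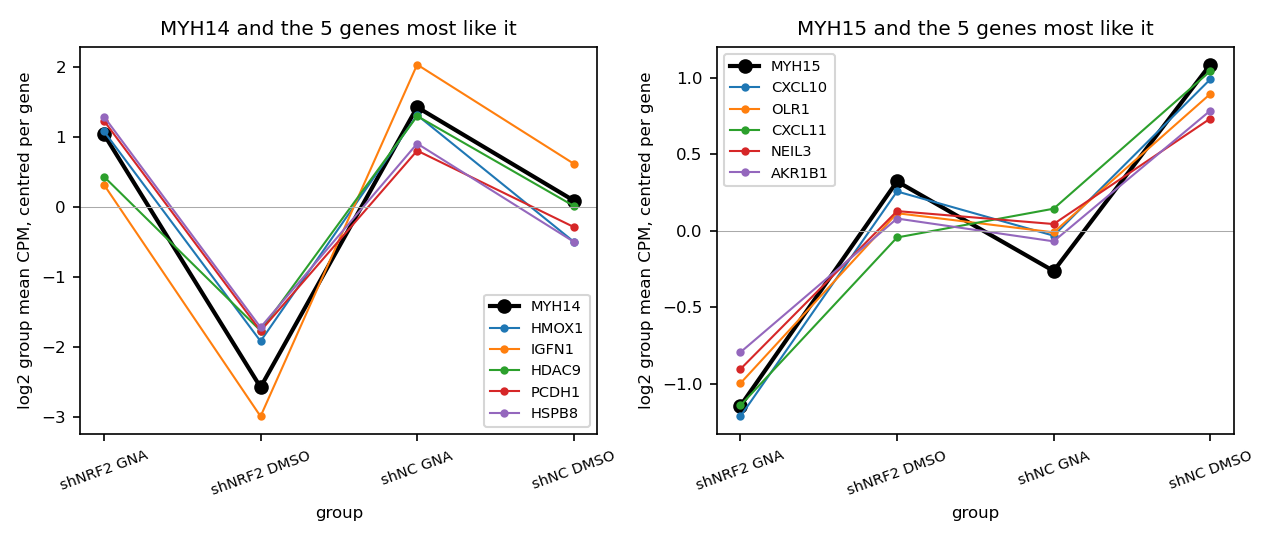
Log2 group mean CPM centred per gene (y axis) in the 4 groups (x axis) for MYH14 (left, black) and MYH15 (right, black) with the 5 candidate genes nearest to each. HMOX1 runs within 0.45 log2 units (root mean square) of MYH14 and CXCL10 within 0.14 of MYH15.

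MYH9, the heavy chain of myosin IIA, had by far the most reads of the set. Per length, by the deposited FPKM, it did not lead throughout: in shNC DMSO its mean FPKM was 158, against 201 for MYL6. Those values use lengths of 17034 bases for MYH9 and 4424 for MYL6, against 7554 and 722 in the transcripts used for the sequences. In shNC DMSO MYL6 led with either set of lengths. In the other groups the leader depended on the lengths used. By the deposited FPKM MYH9 led MYL6 there (198 against 130 in shNRF2 GNA, 183 against 164 in shNRF2 DMSO, 192 against 164 in shNC GNA). With the transcript lengths MYL6 led. In CPM MYH9 had 3158, 3249 and 3368 CPM in shNRF2 GNA, 3300, 3123 and 3023 CPM in shNRF2 DMSO, 2955, 3296 and 3352 CPM in shNC GNA and 2814, 2640 and 3036 CPM in shNC DMSO. The groups overlapped, and shNC DMSO was lowest on average. It rose with GNA in shNC, by a log2 fold change of 0.18 ± 0.052 (SE, edgeR adjusted p = 0.0106), to 3201 ± 215 CPM in shNC GNA, against 2830 ± 198 CPM in shNC DMSO (SD, n = 3 each). In shNRF2 the change was 0.05 with an interval of -0.06 to 0.16 (95%, adjusted p = 0.509).

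Between the lines the difference of MYH9 with GNA was 0.03 with an interval of -0.08 to 0.13 (adjusted p = 0.769), and with DMSO the gene was higher in shNRF2 than in shNC (0.15 ± 0.052 SE, adjusted p = 0.0231). The difference of the GNA responses was -0.13 (interval -0.28 to 0.02, adjusted p = 0.352). The GNA call in shNC was lost without shNC DMSO 2 (0.13, adjusted p = 0.0845), shNC GNA 2 (0.16, 0.0576) or shNC GNA 3 (0.14, 0.0708). The line call in DMSO was lost without shNC DMSO 1 (0.14, adjusted p = 0.0591), shNC DMSO 2 (0.11, 0.156), shNRF2 DMSO 1 (0.12, 0.125) or shNRF2 DMSO 2 (0.16, 0.0505).

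MYH10, the heavy chain of myosin IIB, was raised in the knockdown line and fell with GNA. It had 355, 351 and 344 CPM in shNRF2 GNA and 471, 453 and 459 CPM in shNRF2 DMSO. In the shNC line it had 277, 302 and 304 CPM with GNA and 344, 317 and 323 CPM with DMSO. The shNRF2 DMSO libraries stood above all others, and within each line the GNA libraries were below the DMSO libraries with no overlap. The shNRF2 line was higher by 0.25 ± 0.048 with GNA (log2, SE, adjusted p = 0.000235) and by 0.49 ± 0.047 with DMSO (adjusted p = 5.91e-09).

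MYH10 fell with GNA by 0.40 on the log2 scale in shNRF2 (SE 0.047, adjusted p = 1.6e-07) and by 0.16 in shNC (SE 0.048, adjusted p = 0.014). It was the only member tested that was called for a difference of the GNA responses, at -0.24 (interval -0.38 to -0.10, edgeR adjusted p = 0.0272). That difference was no longer called without any 1 of 8 libraries (shNRF2 GNA 1, 2 or 3, shNRF2 DMSO 1, shNC GNA 2 or 3, shNC DMSO 2 or 3), with values of -0.25 to -0.22 and adjusted p of 0.053 to 0.0934. The call in shNC was lost without shNC DMSO 1 (-0.12, adjusted p = 0.0649) or shNC GNA 1 (-0.11, 0.0885), and with library totals (-0.05, adjusted p = 0.424), upper-quartile factors (-0.12, 0.0506) or limma on log2 FPKM (adjusted p = 0.471 and 0.468). NDEL1, a dynein regulator on the opposite strand, overlaps MYH10 over 16207 bases in GENCODE 29 but over 117 bases in RefSeq. NDEL1 rose with GNA, by 0.33 in shNRF2 (adjusted p = 1.5e-05) and 0.15 in shNC (adjusted p = 0.0296), the opposite direction to MYH10. Between the lines NDEL1 went the same way as MYH10. It was higher in shNRF2 by 0.29 with GNA (edgeR adjusted p = 0.000124) and by 0.11 with DMSO (adjusted p = 0.103, not called). The part of NDEL1 reads in the MYH10 counts was not tested. Whether reads were counted by strand is not given in the sources used here.

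MYL6, the essential light chain shared by all 3 nonmuscle isoforms, fell with GNA and was lower in the knockdown line. It had 579, 542 and 553 CPM in shNRF2 GNA and 729, 754 and 716 CPM in shNRF2 DMSO. In the shNC line it had 772, 733 and 629 CPM with GNA and 824, 955 and 1024 CPM with DMSO. The shNRF2 GNA libraries were below all others, and shNC GNA overlapped shNRF2 DMSO. The log2 fold change with GNA was -0.39 ± 0.066 in shNRF2 (SE, adjusted p = 2.67e-05) and -0.39 ± 0.065 in shNC (adjusted p = 3.25e-05), and between the lines -0.35 ± 0.065 with GNA (adjusted p = 0.000185) and -0.35 ± 0.065 with DMSO (adjusted p = 0.000115). The difference of the GNA responses had an interval of -0.19 to 0.19 (adjusted p = 0.998).

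MYL6 shares 1487 bases with MYL6B on the same strand, a gene for a related essential light chain. MYL6B had 21.2 CPM in shNRF2 GNA, 21.8 CPM in shNRF2 DMSO, 19.04 CPM in shNC GNA and 21.7 CPM in shNC DMSO, and none of its 5 comparisons was called (adjusted p 0.132 to 0.99). It was thus far below MYL6 in read number and was not called where MYL6 was. Its intervals were wide, as with GNA in shNC (log2 -0.39 to 0.003).

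MYL12A and MYL12B, the regulatory light chains, followed the course of MYL6. MYL12B had 163, 167 and 161 CPM in shNRF2 GNA and 194, 225 and 221 CPM in shNRF2 DMSO. In the shNC line it had 235, 220 and 224 CPM with GNA and 272, 296 and 276 CPM with DMSO. Within each line all GNA libraries were below all DMSO libraries, and shNC DMSO stood highest. MYL12B fell with GNA by 0.38 in shNRF2 (log2, SE 0.055, adjusted p = 3.72e-06) and by 0.31 in shNC (SE 0.054, adjusted p = 5.16e-05), and was lower in shNRF2 by 0.47 with GNA and 0.40 with DMSO (log2, adjusted p = 2.36e-07 and 1.49e-06).

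MYL12A had 208, 200 and 204 CPM in shNRF2 GNA, 235, 238 and 255 CPM in shNRF2 DMSO, 251, 237 and 226 CPM in shNC GNA and 257, 270 and 274 CPM in shNC DMSO. Within each line its GNA libraries were below its DMSO libraries with no overlap. It moved the same way as MYL12B by less: -0.25 ± 0.050 with GNA in shNRF2 (log2, SE, adjusted p = 0.000275) and -0.17 ± 0.050 in shNC (adjusted p = 0.0122). Between the lines it was -0.22 ± 0.050 with GNA (adjusted p = 0.00131) and -0.14 ± 0.050 with DMSO (adjusted p = 0.0313). Neither gene's GNA response differed detectably between the lines, with differences of -0.08 for MYL12A (interval -0.23 to 0.06) and -0.06 for MYL12B (interval -0.22 to 0.09).

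The smaller MYL12A calls were the less stable. The call with GNA in shNC was lost without shNC DMSO 3 (-0.15, adjusted p = 0.0552) or shNC GNA 3 (-0.13, 0.0845) and with library totals (-0.06, adjusted p = 0.338) or limma on log2 FPKM (adjusted p = 0.311 and 0.312). The line call in DMSO was lost without shNC DMSO 2 (-0.13, adjusted p = 0.0819), shNC DMSO 3 (-0.12, 0.107), shNRF2 DMSO 1 (-0.12, 0.127) or shNRF2 DMSO 2 (-0.13, 0.112). It was also lost with upper-quartile factors (-0.11, adjusted p = 0.0739), library totals (-0.09, 0.184), no low-count filter (-0.14, 0.0785), only the groups compared (-0.14, 0.0516) and both limma fits of FPKM (adjusted p = 0.172).

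Because the MYL12 sequences are close, their sum was also tested, while exchange of reads between them was not. The sum was lower with GNA by 0.31 in shNRF2 (log2, edgeR adjusted p = 8.81e-06) and by 0.24 in shNC (adjusted p = 0.000272), and lower in shNRF2 by 0.34 with GNA (adjusted p = 4.29e-06) and 0.27 with DMSO (adjusted p = 6.42e-05). The ratio of MYL12B to MYL12A counts was 0.785, 0.838 and 0.791 in shNRF2 GNA, 0.827, 0.947 and 0.866 in shNRF2 DMSO, 0.938, 0.927 and 0.993 in shNC GNA and 1.06, 1.10 and 1.01 in shNC DMSO. MYL12B had the larger count of the pair in all shNC DMSO libraries and the smaller one in all libraries of the other groups. Pseudogene copies of the MYL12 genes had at most 4 counts in any library.

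MYL9, a regulatory light chain gene typical of smooth muscle, was listed at 0 in all 12 libraries of both tables, and no statement on its expression can be made. It lies whole within the antisense gene DLGAP4-AS1 in GENCODE 29, which had 0 to 9 counts a library. EEF1G, TOMM6 and MRPL53, which every cell uses, were also listed at 0 and are named only as examples of such genes. Each overlaps a protein-coding gene on its own strand over nearly its whole length, whereas DLGAP4-AS1 lies on the strand opposite to MYL9. Of 19236 protein-coding symbols 848 were listed at 0 throughout, and the cause was not tested.

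Of the 5 members tested, 4 were called with GNA in shNRF2, all lower, when 33.7% of all genes were called. With GNA in shNC all 5 were called, MYH9 higher and 4 lower, against 30.7% of all genes. Between the lines, 4 were called with GNA (MYH10 higher in shNRF2, the 3 light chains lower), against 26.1% of all genes, and 5 with DMSO (MYH9 and MYH10 higher, the 3 light chains lower), against 35.2%. For the difference of the GNA responses 1 was called, MYH10, against 6.82% of all genes. Comparisons of one line or treatment share their libraries, so these counts are not independent of each other. In bulk samples fewer cells of a type and less RNA per cell cannot be told apart.

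**Figure D3:**
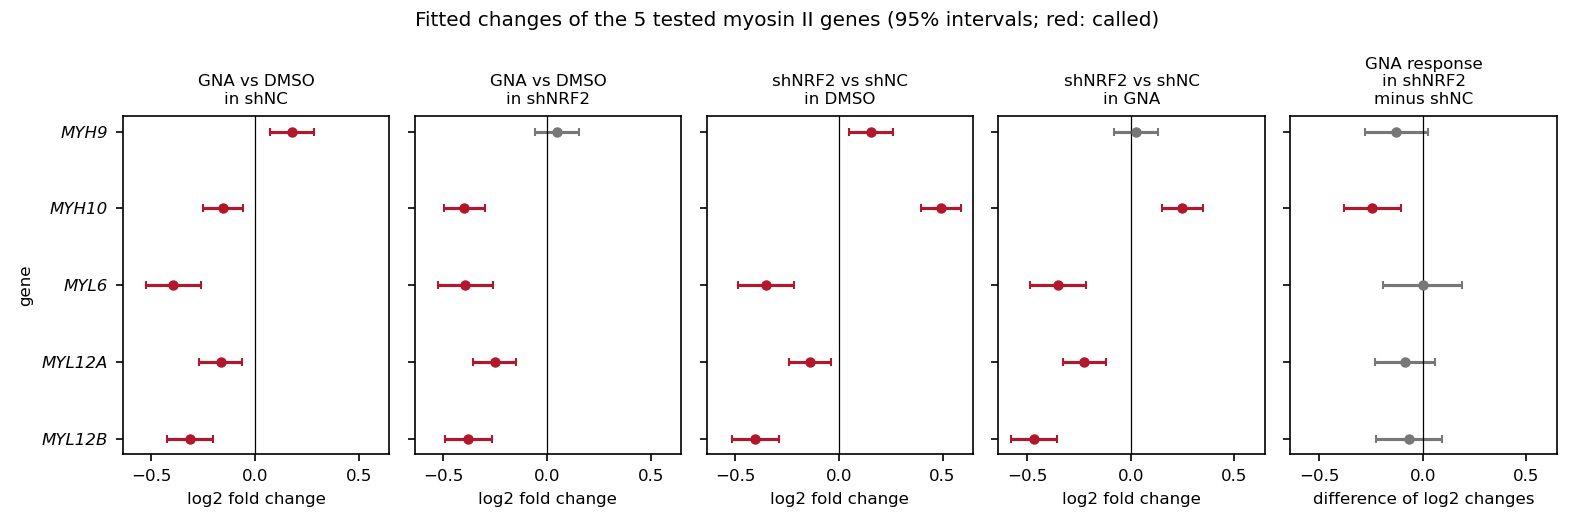
Fitted log2 fold change (x axis) of the 5 tested myosin II genes (rows) in the 4 comparisons and the difference of the GNA responses, with 95% intervals, red where called. The light chains lie between -0.47 and -0.14 in all 4 comparisons, and MYH10 is above 0 only between the lines.

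Per unit of length, MYH9 made up 92.2 ± 0.368% of the summed FPKM of the 4 heavy chain genes in shNRF2 GNA, 91.0 ± 0.276% in shNRF2 DMSO, 91.8 ± 0.127% in shNC GNA and 90.0 ± 0.736% in shNC DMSO (SD, n = 3 each). MYH10 made up 5.17% in shNRF2 GNA, 6.95% in shNRF2 DMSO, 4.40% in shNC GNA and 5.44% in shNC DMSO. The IIB share was highest in shNRF2 DMSO and lowest in shNC GNA. The share of MYH14 was 1.93% in shNRF2 GNA, 0.160% in shNRF2 DMSO, 2.56% in shNC GNA and 1.13% in shNC DMSO. MYH15 had 0.657% in shNRF2 GNA, 1.85% in shNRF2 DMSO, 1.23% in shNC GNA and 3.47% in shNC DMSO. In both DMSO groups MYH15 thus stood above MYH14, and in both GNA groups below it, and MYH9 dominated throughout.

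The lengths behind the deposited FPKM are long: 32700 bases for MYH10 and 4424 for MYL6, against 7762 and 722 in the GENCODE 29 transcripts used for the sequences. With the transcript lengths, an alternative added after the data were seen, MYH10 made up 9.32% in shNRF2 GNA, 12.4% in shNRF2 DMSO, 8.04% in shNC GNA and 9.91% in shNC DMSO. The order of the groups was the same for MYH10 with either length. It was not for MYH9, which had 89.1% in shNRF2 GNA, 86.7% in shNRF2 DMSO, 89.7% in shNC GNA and 87.7% in shNC DMSO with the transcript lengths. With those lengths the share of MYL6 among the light chains was 68.4 to 71.2% in the 4 groups, against 43.5 to 45.7% by the deposited FPKM. MYL12A then had the larger share of the MYL12 pair (at least 16.4% in each group, against 11.6 to 12.7% for MYL12B), whereas by the deposited FPKM MYL12B did.

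By the deposited FPKM, MYL6 made up 43.9% of the light chain sum in shNRF2 GNA, 45.0% in shNRF2 DMSO, 43.5% in shNC GNA and 45.7% in shNC DMSO. The share of MYL12A was 23.4 ± 0.228% in shNRF2 GNA, 21.7 ± 0.920% in shNRF2 DMSO, 21.2 ± 0.261% in shNC GNA and 19.1 ± 0.608% in shNC DMSO, and that of MYL12B was 32.8% in shNRF2 GNA, 33.3% in shNRF2 DMSO, 35.3% in shNC GNA and 35.2% in shNC DMSO. The light chains fell nearly together, with MYL12A gaining a little. Their summed FPKM was 297 ± 5.12 in shNRF2 GNA, 364 ± 13.6 in shNRF2 DMSO, 378 ± 23.5 in shNC GNA and 439 ± 24.9 in shNC DMSO (SD, n = 3 each). The heavy chain sum was 214 ± 6.92 in shNRF2 GNA, 201 ± 8.52 in shNRF2 DMSO, 209 ± 13.9 in shNC GNA and 176 ± 11.3 in shNC DMSO. The light chain sum was lowest in shNRF2 GNA and highest in shNC DMSO. The heavy chain sums of the GNA groups overlapped, at 208 to 222 in shNRF2 GNA and 193 to 219 in shNC GNA, in FPKM scaled by library totals.

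**Figure D4:**
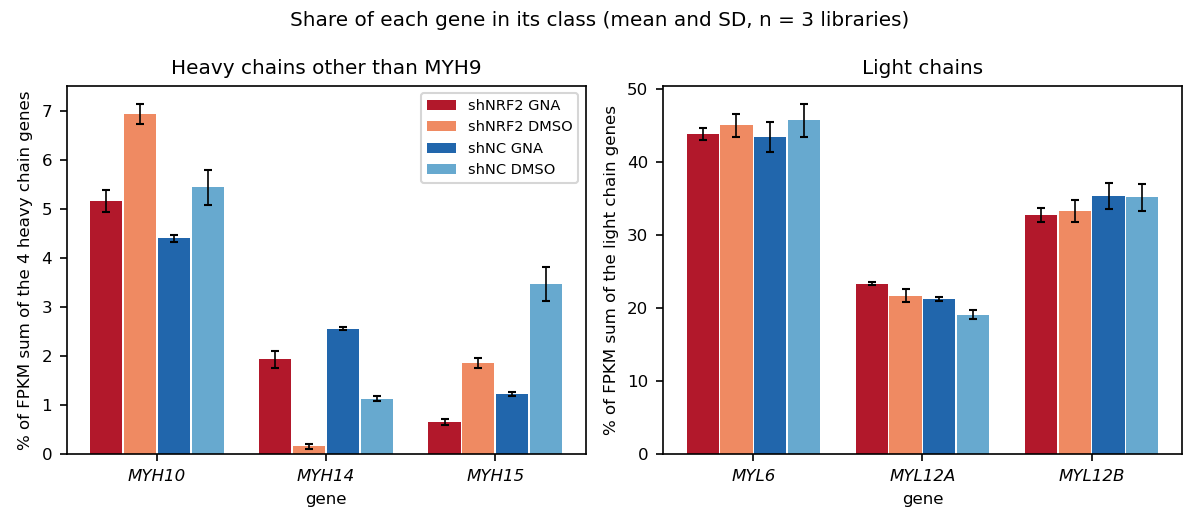
Share of each gene in the summed FPKM of the heavy chain genes (left, MYH9 left out as it holds 90.0 to 92.2%) and of the light chain genes (right), as mean and SD of 3 libraries per group. MYH14 falls to 0.160% in shNRF2 DMSO and MYH15 is highest in shNC DMSO at 3.47%.

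Few other myosin II genes were detected: of 11 further heavy chain genes 4 passed the filter, and of 9 light chain genes, 8 of them in the tables, 2 did. MYH3, the embryonic skeletal muscle heavy chain, had 39.0 CPM in shNRF2 GNA, 26.8 CPM in shNRF2 DMSO, 24.1 CPM in shNC GNA and 20.9 CPM in shNC DMSO. It rose with GNA in shNRF2 (log2 0.54 ± 0.084 SE, edgeR) and was higher in shNRF2 with GNA (0.69) and with DMSO (0.37). MYH16, a pseudogene in humans, fell with GNA by 0.70 in shNRF2 and 0.64 in shNC. MYL5, a further light chain gene, rose with GNA by 0.66 in shNRF2 and 0.74 in shNC.

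Among the enzymes that act on the regulatory light chain, MYLK, the myosin light chain kinase, had 46.4 CPM in shNRF2 GNA, 64.1 CPM in shNRF2 DMSO, 49.5 CPM in shNC GNA and 43.6 CPM in shNC DMSO. The highest level was thus in shNRF2 DMSO. MYLK fell with GNA by 0.47 in shNRF2 (log2, edgeR adjusted p = 4.83e-06) and rose by 0.18 in shNC (adjusted p = 0.0467), a difference of responses of -0.65 (adjusted p = 8.94e-05). CIT, the citron kinase of the cleavage furrow, fell by 1.27 in shNRF2 and 0.70 in shNC (difference -0.57, adjusted p = 0.000468). With DMSO, CIT (0.64), MYLK (0.56) and DAPK1 (0.48), a death-associated kinase, were higher in shNRF2 than in shNC. PPP1R14A, an inhibitor of myosin phosphatase, was lower in shNRF2 by 0.45 with GNA and 0.48 with DMSO.

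Actin filament partners of myosin II were mostly lower with GNA: of 23 tested, 5 were called higher and 14 lower in shNRF2, and 5 higher and 13 lower in shNC, where 33.7% of all genes in shNRF2 and 30.7% in shNC were called. The medians were -0.28 in shNRF2 and -0.15 in shNC (log2), against 0.01 in shNRF2 and 0.02 in shNC over all genes. ANLN, the furrow scaffold anillin, fell by 1.32 in shNRF2 and 0.99 in shNC, and CALD1, caldesmon, fell by 0.55 in shNRF2, to 1372 CPM in shNRF2 GNA, against 2013 CPM in shNRF2 DMSO. The tropomyosin genes TPM2 and TPM4 fell by 0.32 and 0.38 in shNRF2. TPM2 fell by 0.42 in shNC, more than in shNRF2. TPM4 fell more in shNRF2 (difference of responses -0.24, edgeR adjusted p = 0.0239). ACTB and ACTG1, the cytoplasmic actins, named after their values were seen, fell by 0.49 and 0.43 in shNRF2 and by 0.36 and 0.32 in shNC. Filamin A (FLNA), which cross-links actin, rose by 0.21 in shNRF2 and 0.29 in shNC.

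Between the lines none of the 23 was called higher and 5 were called lower in shNRF2 with GNA, and 4 higher and 6 lower with DMSO, beside 26.1% of all genes called with GNA and 35.2% with DMSO. TPM2 was lower in shNRF2 by 0.40 with GNA and 0.50 with DMSO, and TAGLN2, transgelin 2, by 0.51 with GNA and 0.38 with DMSO. SRF, MRTFA and MRTFB, which switch on actin and myosin genes, all fell with GNA in shNRF2, by 0.34, 0.22 and 0.23. None was called with GNA in shNC. With DMSO, MRTFA (0.37, edgeR adjusted p = 0.000103) and MRTFB (0.43, adjusted p = 0.00012) were higher in shNRF2 than in shNC. With GNA none of the 3 regulators was called between the lines. Of these only MRTFB was called for a difference of the GNA responses (-0.42, edgeR adjusted p = 0.024). The median difference over the 3 regulators was -0.35, so the lack of a call does not show equal responses.

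Of 10 tested genes for assembly, chaperone and binding proteins of myosin II, GNA in shNRF2 gave 1 higher and 3 lower calls, beside 33.7% of all genes called, and GNA in shNC gave 2 and 3, beside 30.7%. S100A4, which binds the tail of myosin IIA and takes its filaments apart, had 33.3 CPM in shNRF2 GNA, 62.2 CPM in shNRF2 DMSO, 50.5 CPM in shNC GNA and 89.8 CPM in shNC DMSO. It fell with GNA by 0.90 in shNRF2 and 0.83 in shNC, and was lower in shNRF2 by 0.60 with GNA and 0.53 with DMSO, so it was called in the same direction as MYL6, MYL12A and MYL12B in all 4 comparisons. The septin genes SEPTIN2 and SEPTIN7 fell with GNA in both lines, by 0.21 and 0.31 in shNRF2. Of 19 unconventional myosin genes, GNA in shNRF2 gave 4 higher and 4 lower calls, and GNA in shNC gave 4 and 1. With such short lists these counts are read as no result about either list. MYO5A, a cargo motor, rose by 0.57 in shNRF2 and 0.40 in shNC.

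**Figure D5:**
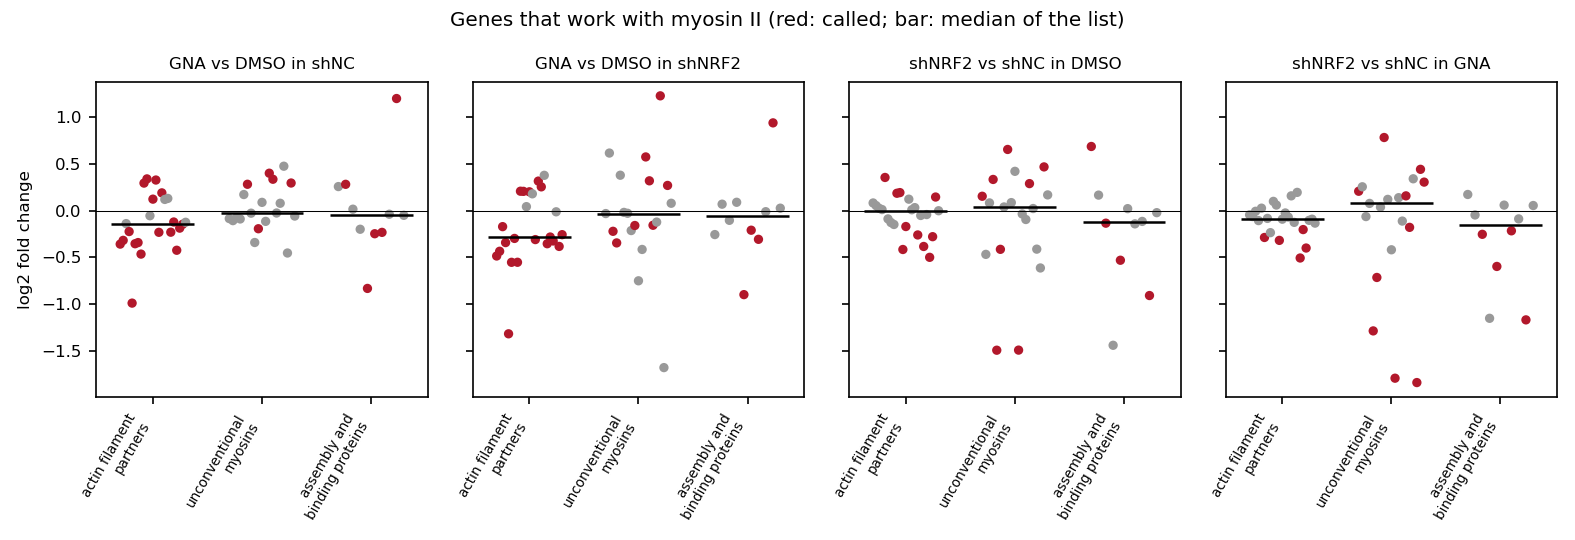
Log2 fold change (y axis) of the tested genes of 3 related lists (x axis) in each comparison, 1 point per gene, red where called, with the list median as a bar. The actin partners lie mostly below 0 with GNA, with medians of -0.28 in shNRF2 and -0.15 in shNC.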

How the data were processed

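The authors deposited raw counts and FPKM for the same 61510 genes and 12 libraries, 1 table each. Per the submitters' processing notes the build was GRCh38 and DESeq2 was used, in a role not stated. The sources used here do not give the aligner, counting tool, strand setting or annotation. FPKM as deposited equalled counts divided by column total and a fixed length per gene in 100% of 15653 genes (relative tolerance 0.001), so FPKM served for levels per length only and as an alternative.

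All columns matched a library title. Genes were kept by filterByExpr (minimum count 10, minimum total 15), TMM-scaled and tested with edgeR 4.0.16 (glmQLFit, glmQLFTest; R 4.3.3; 4 group coefficients, 8 residual degrees of freedom). Calls needed a Benjamini-Hochberg adjusted p under 0.05 over all 15653 genes in each of 5 comparisons, two-sided. An exact permutation test of 3 against 3 cannot go below p = 0.1. Every member was named, and from each related list up to 3 called genes per direction and comparison with at least 5 CPM. The members and lists were chosen with earlier results of these data known. The SE is the log2 fold change over the square root of F.

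Alternatives were DESeq2 size factors, upper-quartile factors, library totals, no filter, 1 CPM in 3 libraries, DESeq2 1.42.0, limma 3.58.1 on log2(FPKM + 1) and log2(FPKM + 0.1), a replicate term, only the groups compared, and each library left out. Some genes of the related lists are not reported here.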

Additional observations from a re-analysis of the deposited data

Results flagged for a closer look

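MYH10 was the 1 tested member called for a difference of the GNA responses between the lines. The difference of the log2 fold changes (shNRF2 minus shNC) was -0.2423, with an edgeR adjusted p of 0.0272. MYH10 fell more with GNA in shNRF2 (-0.40) than in shNC (-0.16), in a comparison with 6.82% of all genes called. The direction was the same in every alternative tried, and the adjusted p ran from 0.00292 to 0.0934.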

How the results depend on the processing

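The member calls lost under some alternative all had log2 values between -0.24 and 0.18, while larger changes of the tested members kept theirs. The MYL12A call between the lines with GNA (-0.22) lies in that range and was also kept. The 4 members called with GNA in shNRF2 and the 4 called between the lines with GNA numbered 4 under every alternative. With GNA in shNC the 5 called became 3 with library totals, with limma on log2(FPKM + 1) and with limma on log2(FPKM + 0.1), and 3 to 5 with 1 library left out. Library totals put the median log2 change of all genes at 0.12 and 69.7% of calls higher (3543 of them), against 2284 higher and 2526 lower with TMM. Members called between the lines with DMSO numbered 3 to 5 with 1 library left out, and the MYL12A call among them was lost under 6 other settings.

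For the difference of the GNA responses, 1068 genes were called, against 657 with limma on log2(FPKM + 1), 603 with limma on log2(FPKM + 0.1) and 700 to 1437 with 1 library left out, the 700 being without shNC GNA 2. The 1 member called there became 0 with limma on log2(FPKM + 0.1) and 0 to 1 with 1 library left out. The difference for MYL6 was 0.0007506 and took the other sign with DESeq2 size factors (-0.004081), upper-quartile factors (-0.008953), library totals (-0.03898), no low-count filter (-0.007757), 1 CPM in 3 libraries (-0.001433), DESeq2 (-0.003349), limma on log2(FPKM + 1) (-0.03865) and on log2(FPKM + 0.1) (-0.03923), and ran from -0.07866 to 0.08348 with 1 library left out. That of MYH15 was 0.0172 with limma on log2(FPKM + 1). The difference of MYH9 between the lines with GNA ran from -0.02929 to 0.06081 with 1 library left out. These changes of sign were in values that were not called. The causes were not tested.

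Same replicate numbers did not mark pairs: in 0 of 18 same-numbered pairs did residuals correlate above 0.1, and 2 of 12 libraries were closest to one of their own number. With the number as a replicate block, 4683 genes were called with GNA in shNC, 5138 with GNA in shNRF2, 5360 between the lines with DMSO, 3968 with GNA and 915 for the difference of responses. The members called were unchanged in number, and MYH10 kept its difference of responses at -0.2427 (adjusted p = 0.0461).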
